A study of Homo sapiens with 4 samples.

Results

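The glycolytic enzymes described here are 10 genes, HK1, HK2, GPI, PFKP, ALDOA, PGK1, PGAM1, ENO1, PKM and LDHA, of 19775 genes on the array that had a probe set naming them alone. They were chosen by name, and all 24 probe sets whose annotation names one of them and no other gene were used, of 54675 probe sets in all. Signals came from 4 Affymetrix U133 Plus 2.0 arrays of 2 human breast cancer cell lines. T-47D is an estrogen receptor-positive line and MDA-MB-231 a triple negative line, each bought from a cell bank and grown in RPMI1640, and each was given 100 μM JPH203, an inhibitor of the amino acid transporter LAT1, or 100 μM Captisol as the control, for 24 h. Whether the JPH203 cultures also held Captisol is not given in the sources used here. Every ratio to the control carries that doubt. The groups were T-47D cells with JPH203, T-47D controls, MDA-MB-231 cells with JPH203 and MDA-MB-231 controls, with 1 array each. With single arrays there are no replicates, and the differences below carry no error and no p-value. All values are bulk measurements, in which a lower signal in every cell and in fewer cells cannot be told apart.

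Glycolysis splits glucose into pyruvate in the cytosol. Hexokinases trap glucose as its phosphate, phosphofructokinase makes the committed step, aldolase cuts the sugar, and the lower steps recover ATP and yield pyruvate, which lactate dehydrogenase turns into lactate. Tumour cells often run this route at a high rate even with oxygen, and many of its genes are known targets of the hypoxia factor HIF-1 and of MYC.

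A signal is the intensity of a probe set on a linear scale, and a gene was read from its brightest probe set. A ratio is the signal with JPH203 over that of the control of the same line. The minimum signal was set at 100. Genes were called when they reached it on both arrays and had a ratio of 2 or more, or of 0.5 or less. Medians of log2 ratios cover genes that reached it on 1 array or both. Signals of different probe sets are not compared with each other, since each has its own brightness.

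The labels were checked against markers of each line. The 11 measured mesenchymal markers had more signal in MDA-MB-231 cells and the 14 luminal markers in T-47D cells, by 2-fold or more in every case, on the JPH203 arrays and on the control arrays. All 14 luminal markers reached the minimum in T-47D cells, and 10 of the 11 mesenchymal markers did in MDA-MB-231 cells. The remaining mesenchymal marker was under the minimum on every array, so its difference gives no reliable size. Among probe sets at or above the minimum on both arrays, log2 ratios of JPH203 over control had an SD of 0.51 for T-47D, over 10258 probe sets, and 0.20 for MDA-MB-231, over 11370 probe sets. ACTB probe sets at the 3′ end, set over those at the 5′ end as a sign of RNA quality, gave 1.72 with JPH203 and 1.39 in the control for T-47D, and 1.44 with JPH203 and 1.45 in the control for MDA-MB-231. The same quotient of GAPDH ran the other way for T-47D, at 0.867 with JPH203 and 0.940 in the control, and was 1.01 with JPH203 and 0.987 in the control for MDA-MB-231. The geometric mean of the poly-A spike-in transcripts with JPH203 was 1.56 times its control value for T-47D and 0.927 times for MDA-MB-231. The part of these technical differences in the results below was not tested.

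In T-47D cells, all 10 glycolytic enzymes had a lower signal with JPH203 than in the control, with ratios between 0.474 and 0.935, though none was called at 2-fold. The median log2 ratio of the 10 enzymes was -0.70, beside -0.05 over the 7338 genes that reached the minimum on 1 array or both. Of those genes, 53.7% had a ratio below 1. All 10 enzymes were below their control after each of the 4 other scalings tried as well. With the mean of all probe sets, where a dim one weighs as much, HK2 and ENO1 were above their controls. Of the 8 enzymes that reached the minimum on both arrays, 4 were lower by 1.5-fold or more, against 13.6% of the 6416 genes tested. At 2-fold, 2.42% of these genes were lower and 2.23% higher.

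**Figure D1:**
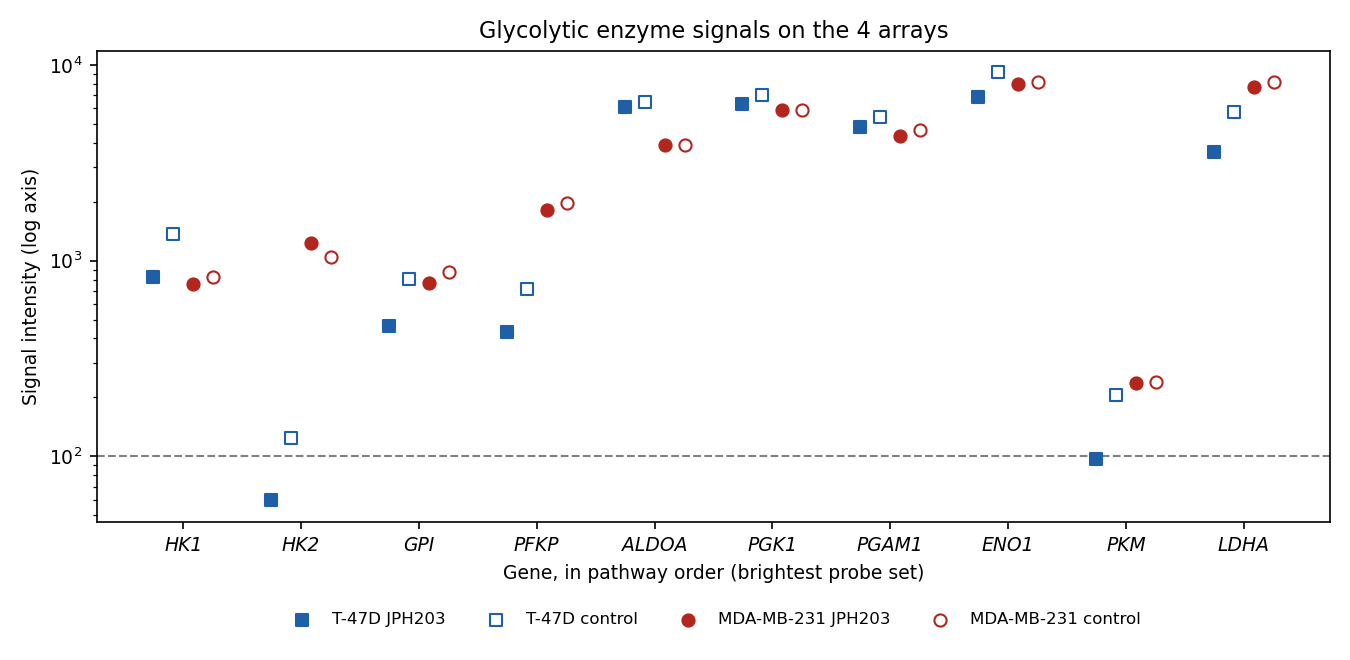
Signal intensity (log y axis) of each glycolytic enzyme on its brightest probe set (x axis, pathway order) on the 4 arrays, with filled symbols for JPH203, open symbols for control, squares for T-47D and circles for MDA-MB-231; each point is 1 array and the dashed line is a signal of 100. The filled squares lie below the open squares for all 10 genes, and HK2 is at 59.5 with JPH203 and 123.6 in the control of T-47D cells, against 1235 with JPH203 and 1039 in the control of MDA-MB-231 cells.

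The upper, sugar phosphate steps held 3 of the 4 enzymes that reached the minimum on both T-47D arrays and were lower by 1.5-fold or more. HK2 and PKM had lower ratios still, but were under the minimum with JPH203 and are not in this count. HK1, the hexokinase found in most tissues, had a signal of 827 with JPH203 and 1375 in the control, a ratio of 0.602. GPI, which turns glucose 6-phosphate into fructose 6-phosphate, had 465 with JPH203 and 801 in the control, a ratio of 0.580. PFKP, the platelet-type phosphofructokinase, had 432 with JPH203 and 717 in the control, a ratio of 0.602. These 3 ratios were close to one another, and each lay inside the range of similar probe sets given further on. HK2, the inducible hexokinase of muscle, fat and many tumours, had 59.5 with JPH203 and 123.6 in the control. Its JPH203 signal was under the minimum of 100, so the ratio, 0.481, gives no reliable size and HK2 was not called.

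The middle of the pathway had the ratios nearest 1 in T-47D cells. ALDOA, the main aldolase, had a signal of 6078 with JPH203 and 6501 in the control of T-47D cells, a ratio of 0.935. PGK1, the first ATP-yielding enzyme, had 6334 with JPH203 and 7006 in the control, a ratio of 0.904, and PGAM1, a phosphoglycerate mutase, had 4833 with JPH203 and 5436 in the control, a ratio of 0.889.

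At the lower end, ENO1, the common enolase, had 6854 with JPH203 and 9193 in the control of T-47D cells, a ratio of 0.746. LDHA, the lactate dehydrogenase subunit that favours lactate formation, had 3610 with JPH203 and 5734 in the control, a ratio of 0.630. Among the enzymes at the minimum on both arrays, LDHA was the remaining one past 1.5-fold. PKM, the pyruvate kinase gene whose splice forms are M1 and M2, had 97.2 with JPH203 and 205 in the control. Like HK2 it was under the minimum with JPH203, so the ratio, 0.474, gives no reliable size, and the annotation used here does not tell the splice forms apart. With a minimum signal of 50, HK2 and PKM were both called lower.

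The T-47D arrays differed widely for all kinds of genes, and each enzyme was therefore set beside the 500 probe sets nearest to it in mean signal of the 2 arrays, as a description and not a test. For each of the 10 enzymes, between 1.4% (ENO1) and 11.2% (PGAM1) of those probe sets had a lower ratio. ENO1 and LDHA lay below the central 95% of their neighbours, which ran from 0.848 to 1.94 for ENO1 and from 0.659 to 2.28 for LDHA. The other 8 lay inside it. Bright probe sets as a whole ran above their control on these arrays, with a median ratio of 1.34 around ALDOA, 1.35 around PGK1 and 1.28 around PGAM1, so that these 3 enzymes, close to a ratio of 1, were still in the lower part of probe sets as bright as they are. Around HK1, GPI and PFKP the median ratio was between 0.981 and 1.04.

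**Figure D2:**
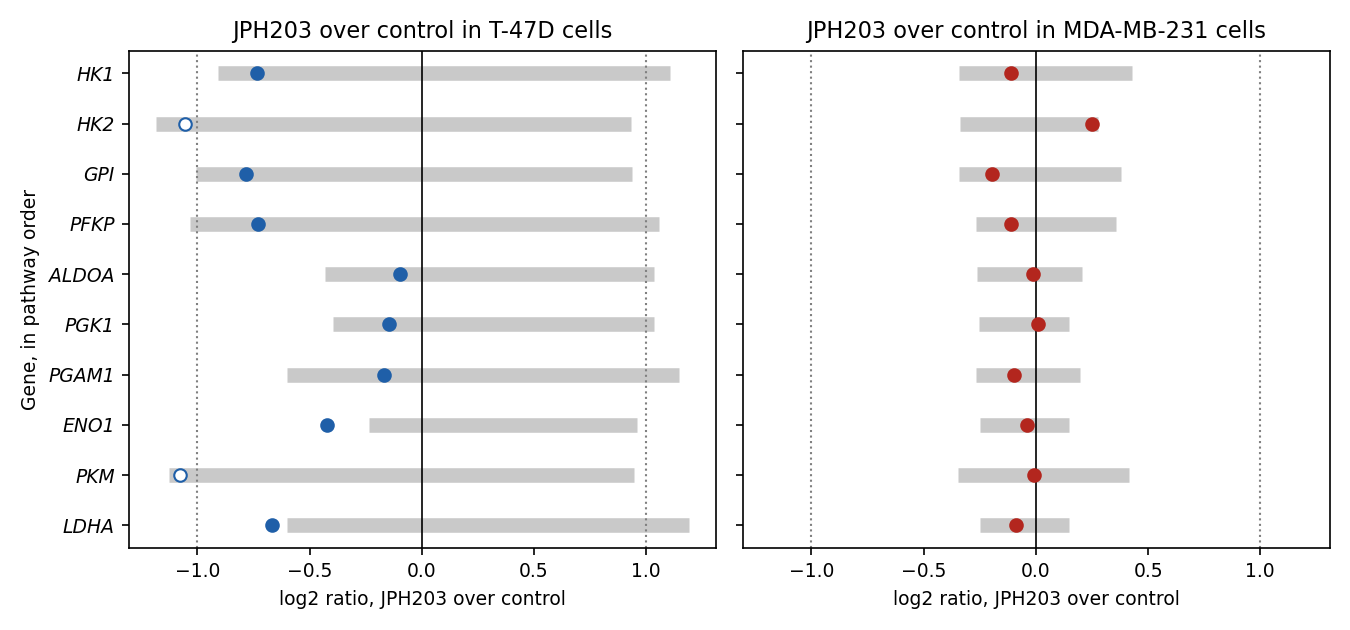
Ratios of JPH203 over control on a log2 scale (x axis) of each glycolytic enzyme (y axis, pathway order) in T-47D cells (left) and MDA-MB-231 cells (right), each point from 1 array per condition; open points are below a signal of 100 on 1 array, grey bars span the central 95% of the 500 probe sets nearest in signal, and dotted lines mark 2-fold. All 10 points lie left of 0 in T-47D cells, ENO1 and LDHA left of their bars, and all 10 lie inside their bars for MDA-MB-231.

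In MDA-MB-231 cells the enzymes stayed close to their controls, with ratios between 0.874 and 1.19, and none was called. The median log2 ratio of the 10 enzymes was -0.064, beside -0.005 over the 7170 genes that reached the minimum on 1 array or both. Of the 10 enzymes, 8 were below their control, where 51.1% of genes were, and this count was 3 of 10 once scaled to the poly-A spike-ins and 6 of 10 after quantile normalization or loess. None was lower by 1.5-fold, as 0.31% of the 6777 genes tested were. At 2-fold, 0.0885% of those genes were higher and 0.0148% lower, so calls were rare for any gene in this line.

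HK2 had the highest ratio of the 10, with a signal of 1235 with JPH203 and 1039 in the control of MDA-MB-231 cells, a ratio of 1.19. Of the 500 probe sets nearest in signal, 96.8% had a lower ratio, and their central 95% ended at 1.21. GPI had the lowest ratio, 0.874, with 769 with JPH203 and 880 in the control. HK1 had 761 with JPH203 and 822 in the control, a ratio of 0.926, and PFKP had 1821 with JPH203 and 1968 in the control, a ratio of 0.925. HK1, GPI and PFKP were thus slightly below their controls and HK2 above its own.

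From aldolase down, the MDA-MB-231 ratios lay between 0.935, for PGAM1, and 1.01, for PGK1. ALDOA had 3882 with JPH203 and 3920 in the control, PGK1 had 5910 with JPH203 and 5864 in the control, and PGAM1 had 4332 with JPH203 and 4636 in the control. ENO1 had 7971 with JPH203 and 8195 in the control, PKM had 237 with JPH203 and 238 in the control, and LDHA had 7701 with JPH203 and 8186 in the control. All 10 enzymes lay inside the central 95% of the probe sets nearest in signal.

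The log2 ratio in T-47D cells was below that in MDA-MB-231 cells for all 10 enzymes, by amounts from 0.07 for PGAM1 to 1.30 for HK2, the HK2 value resting on the T-47D signal below the minimum. For HK1, GPI, PFKP and LDHA the log2 ratio in T-47D cells minus that in MDA-MB-231 cells lay between -0.62 and -0.58. With 1 array per condition the difference between the lines could not be tested, and the ratios of all genes spread more in T-47D cells, as the SDs above show. Over the 4 arrays, 6 enzymes had their lowest signal in T-47D cells with JPH203, 3 in MDA-MB-231 cells with JPH203 and 1 in the MDA-MB-231 control. The shares of all genes with a lower log2 ratio in T-47D cells, or with their lowest signal on each array, were not computed. How far these counts depart from those of genes in general is therefore not known.

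Several enzymes have more than 1 probe set, which shows how far a ratio depends on the one read. Of the 24 probe sets, 14 reached the minimum on all 4 arrays and 7 on none. In T-47D cells, all 14 had a lower signal with JPH203 than in the control, with ratios from 0.580 to 0.943. In MDA-MB-231 cells, 7 of the 14 were lower, with ratios from 0.874 to 1.30. The 14 include 4 of PGK1, 3 of ALDOA and 2 of ENO1, so they repeat the enzymes above and add no further genes. The share of all probe sets at this minimum that were lower was not computed. PGK1 had the widest spread. Its 4 probe sets above the minimum had ratios of 0.904, 0.771, 0.799 and 0.611 in T-47D cells, from the brightest to the dimmest, and of 1.01, 1.11, 1.23 and 1.30 in MDA-MB-231 cells. The dimmest of these, with 622 with JPH203 and 1019 in the control of T-47D cells, would have put PGK1 past 1.5-fold there, and its 1310 with JPH203 and 1008 in the control of MDA-MB-231 cells is the highest ratio of any of the 14.

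For ALDOA, the 2 bright probe sets had ratios of 0.935 and 0.943 in T-47D cells, and the third, with 802 with JPH203 and 1175 in the control, had 0.683. For ENO1, the next brightest probe set had 4507 with JPH203 and 6632 in the control of T-47D cells, a ratio of 0.680, below the 0.746 of the brightest. The 2 other HK2 probe sets and the other PKM and PFKP probe sets were below 100 on every array and are not read. RefSeq lists numbered pseudogenes of 7 of the 10 genes, 13 of them for PGAM1 and 6 for LDHA. Probe sets whose name ends in _s_at or _x_at can match several transcripts, so the values of these genes are uncertain to that extent. Without such probe sets, 5 enzymes still reached the minimum on 1 T-47D array or both, all 5 below their control.

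**Figure D3:**
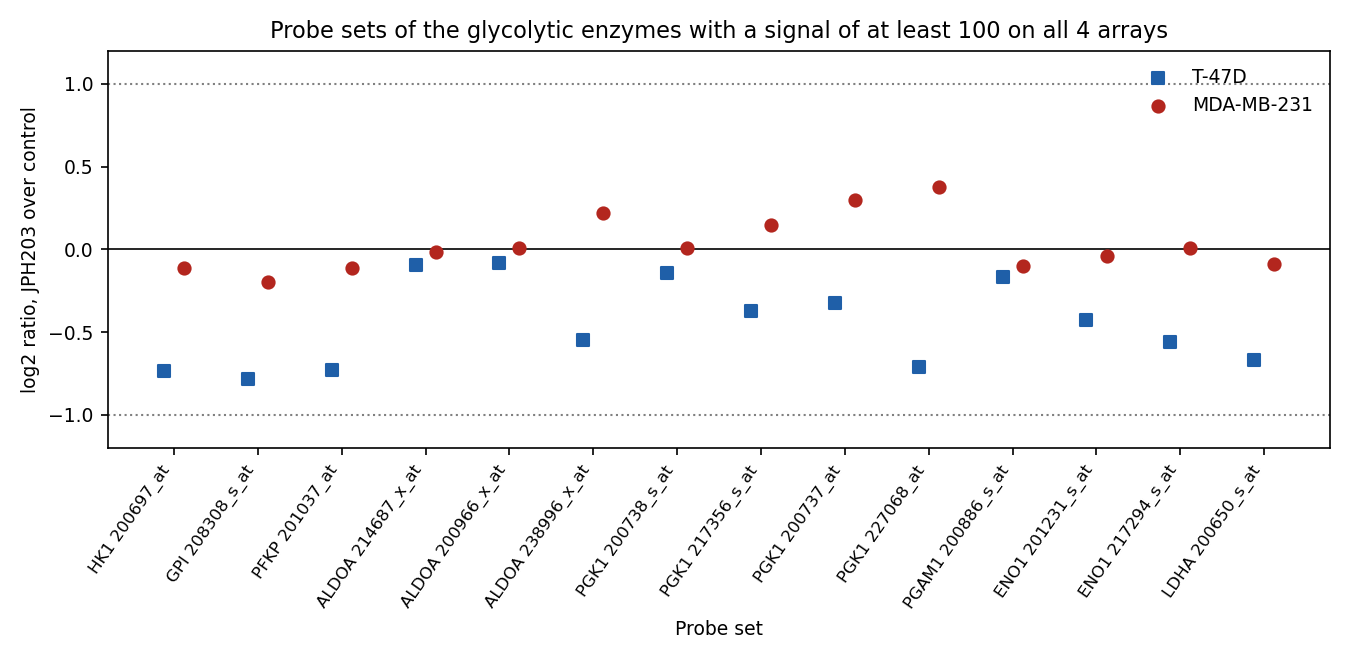
log2 ratio of JPH203 over control (y axis) of the 14 probe sets of glycolytic enzymes that reached a signal of 100 on all 4 arrays (x axis), with blue squares for T-47D and red circles for MDA-MB-231 cells, each from 1 array per condition; dotted lines mark 2-fold. All 14 squares lie below 0, and among the PGK1 probe sets the squares run down to -0.71 while the circles run up to 0.38.

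Control signals of MDA-MB-231 cells were set over those of T-47D cells to compare the lines without JPH203. Here a gene was called at 2-fold when it reached the minimum on 1 array or both. HK2 and PFKP were higher in MDA-MB-231 cells, no enzyme was higher in T-47D cells, and the other 8 differed by less than 2-fold. Over all 8294 genes tested, 23.5% were higher in MDA-MB-231 controls, while 24.3% were higher in T-47D controls, so that 2 of 10 enzymes is near the background. Of the 5688 genes that reached the minimum on both control arrays, 16.3% were higher for MDA-MB-231, and HK2 and PFKP were again the enzymes called. The median log2 ratio of the 10 enzymes was -0.016, beside 0.001 over all genes tested. Poly-A spike-ins on the MDA-MB-231 control array had 0.307 times the signal of those on the T-47D control array. Scaled to them, all 10 enzymes would be higher in MDA-MB-231 cells, and 8 of them called, while the median of all genes would move to 1.70 on the log2 scale.

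The hexokinases ran in opposite directions between the lines. HK2 had 1039 in MDA-MB-231 controls against 123.6 in T-47D controls, a ratio of 8.41, above the central 95% of its 500 nearest probe sets, which ended at 5.58. HK1 had 822 in MDA-MB-231 controls against 1375 in T-47D controls, a ratio of 0.598. The HK1 direction turned after scaling to the spike-ins. PFKP had 1968 in MDA-MB-231 controls against 717 in T-47D controls, a ratio of 2.74, and 95% of its nearest probe sets had a lower ratio. With the mean of all probe sets, where a dim one weighs as much, the PFKP log2 ratio was -0.60 and the call was lost.

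Of the others, LDHA had 8186 in MDA-MB-231 controls against 5734 in T-47D controls, a ratio of 1.43, PKM had 238 in MDA-MB-231 controls against 205 in T-47D controls, a ratio of 1.16, and GPI had 880 in MDA-MB-231 controls against 801 in T-47D controls, a ratio of 1.10. Those below 1 were ALDOA at 0.603, PGK1 at 0.837, PGAM1 at 0.853 and ENO1 at 0.891. After quantile normalization or loess, 8 of the 10 enzymes were higher in MDA-MB-231 cells, against 5 as deposited.

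Partner isoforms of the same steps also differed between the lines. LDHB, the lactate dehydrogenase subunit of heart, had 5513 in MDA-MB-231 controls against 46.6 in T-47D controls by its brightest probe set. The second probe set gave 4969 in MDA-MB-231 controls against 64.8 in T-47D controls. The T-47D signals are below the minimum, so the difference gives no reliable size. ALDOC, the aldolase of brain, ran the other way, with 24.4 in MDA-MB-231 controls against 548 in T-47D controls. ENO2, the neuronal enolase, had 126.9 in MDA-MB-231 controls against 19.4 in T-47D controls. Among the phosphofructokinases, PFKM, the muscle form, had 498 in MDA-MB-231 controls against 1111 in T-47D controls, a ratio of 0.449, and PFKL, the liver form, had 107.2 in MDA-MB-231 controls against 203.4 in T-47D controls, a ratio of 0.527, both opposite to PFKP. The PFKM and PFKL ratios were above 1 after scaling to the spike-ins. TPI1, triose phosphate isomerase, had 4123 in MDA-MB-231 controls against 2849 in T-47D controls, and GAPDH, which oxidises glyceraldehyde 3-phosphate, had 8490 in MDA-MB-231 controls against 10034 in T-47D controls. The GAPDH direction turned after quantile normalization, loess and spike-in scaling.

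**Figure D4:**
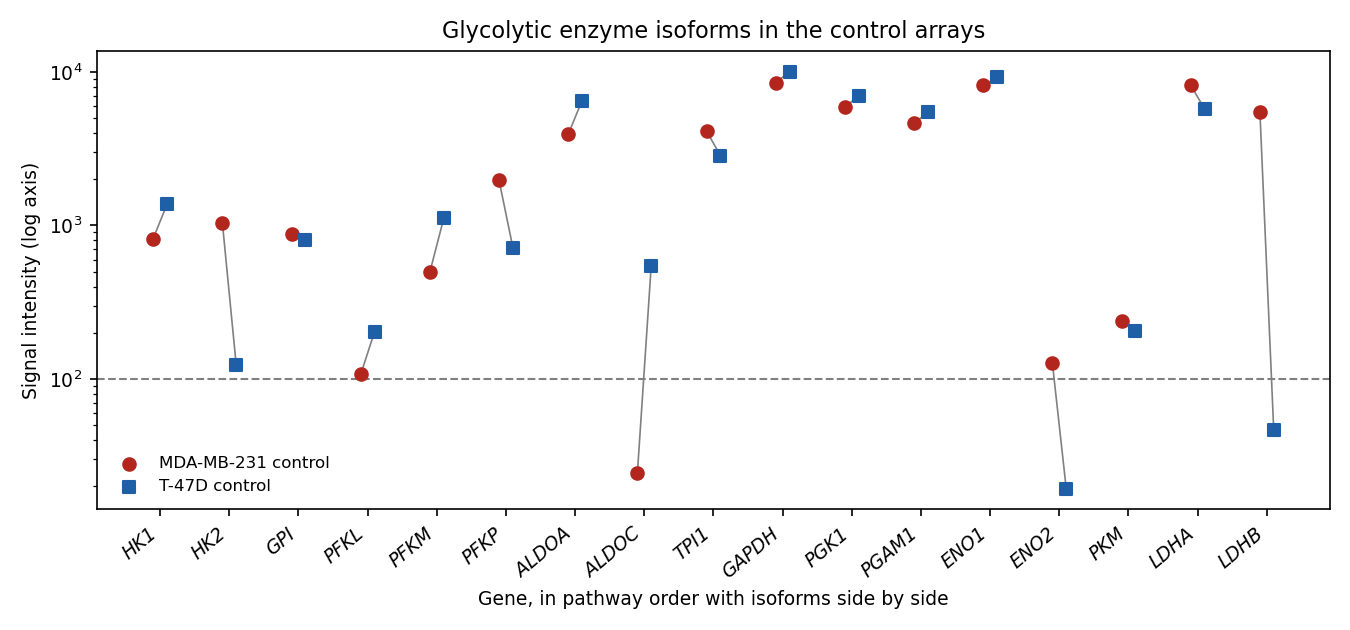
Signal intensity (log y axis) of glycolytic enzymes and their partner isoforms on the brightest probe set (x axis, pathway order) with red circles for the MDA-MB-231 control and blue squares for the T-47D control, 1 array per point and a line joining each pair; the dashed line is a signal of 100. The circle lies far above the square for LDHB (5513 for MDA-MB-231, 46.6 for T-47D) and HK2 (1039 for MDA-MB-231, 123.6 for T-47D), and below it for ALDOC (24.4 for MDA-MB-231, 548 for T-47D).

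The bases before the start sites of 4 enzymes are shown. HK2 and PFKP are the enzymes that differed between the lines. LDHA and PGK1 hold repeated matches to ACGTG, a form of the core of the HIF-1 site. The bases are the 250 before the start of each gene in RefSeq, build GRCh38.p14, written 5′ to 3′ on the strand of the gene. Only 1 start was used per gene, the first one listed, and windows before any other starts were not searched. Capitals mark ACGTG on either strand (CACGT where it lies on the other strand), and other forms of the core are not marked.
HK2 (chr2:74833877-74834126, plus strand): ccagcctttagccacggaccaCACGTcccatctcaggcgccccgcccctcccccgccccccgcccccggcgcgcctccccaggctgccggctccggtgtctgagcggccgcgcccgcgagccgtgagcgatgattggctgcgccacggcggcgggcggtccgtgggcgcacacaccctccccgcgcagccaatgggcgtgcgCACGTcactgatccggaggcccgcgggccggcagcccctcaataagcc
PFKP (chr10:3067720-3067969, plus strand): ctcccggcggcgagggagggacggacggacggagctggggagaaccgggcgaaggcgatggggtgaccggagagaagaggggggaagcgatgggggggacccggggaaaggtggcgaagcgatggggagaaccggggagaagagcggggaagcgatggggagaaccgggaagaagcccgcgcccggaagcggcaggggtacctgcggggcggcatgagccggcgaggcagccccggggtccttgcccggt
LDHA (chr11:18394313-18394562, plus strand): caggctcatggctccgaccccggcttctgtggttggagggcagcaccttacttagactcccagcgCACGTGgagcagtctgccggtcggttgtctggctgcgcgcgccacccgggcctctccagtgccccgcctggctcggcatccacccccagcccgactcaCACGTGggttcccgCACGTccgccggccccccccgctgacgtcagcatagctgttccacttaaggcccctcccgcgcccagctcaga
PGK1 (chrX:78103998-78104247, plus strand): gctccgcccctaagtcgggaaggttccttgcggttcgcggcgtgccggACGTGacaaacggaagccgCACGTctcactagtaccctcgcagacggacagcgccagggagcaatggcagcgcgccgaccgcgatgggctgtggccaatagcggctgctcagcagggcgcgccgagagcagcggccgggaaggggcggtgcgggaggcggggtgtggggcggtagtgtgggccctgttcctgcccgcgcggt
ACGTG was found on either strand in 5 of the 10 enzymes' windows and in 18.7% of 27305 such windows over all genes. HK2 and PGK1 had 2 matches each, GPI and ALDOA 1 each, and LDHA 5. The windows of HK1, PFKP, PGAM1, ENO1 and PKM held no ACGTG. Other forms of the core were not searched for, so a window without ACGTG may still hold one. In LDHA, 4 of the matches are the 2 strands of CACGTG, the E-box bound by MYC and related factors, which contains ACGTG. The E-box was found in the window of LDHA alone among the 10, and in 6.49% of all windows. TGATGNAA, a form of the site read by ATF4 with its partners, was found in HK1 alone among the 10 and in 3.19% of all windows. A match is a description of these letters and shows no binding.

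On the control arrays, HIF1A, the subunit of HIF-1 that oxygen regulates, had 3981 in MDA-MB-231 controls against 1233 in T-47D controls, a ratio of 3.23, and MYC had 868 in MDA-MB-231 controls against 142.7 in T-47D controls, a ratio of 6.08. EPAS1, the related HIF-2 subunit, had 525 in MDA-MB-231 controls against 2051 in T-47D controls, a ratio of 0.256. After scaling to the spike-ins the log2 ratio of EPAS1 was -0.26 and its call was lost. ARNT, the other subunit of HIF-1, was chosen after its values were seen and was called higher in T-47D cells. It had 68.7 in MDA-MB-231 controls, under the minimum, against 172.1 in T-47D controls. Of the 17 regulators tested, 4 were called higher for MDA-MB-231 and 3 for T-47D, beside 23.5% and 24.3% of all genes tested. With JPH203 in T-47D cells, HIF1A had a ratio of 0.817 and MYC of 0.827, neither called. No link between these levels and those of HK2 or PFKP was tested.

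The wider pathway was read from 5 lists of 77 further genes, 70 of which had a probe set naming them alone. Among the other glycolytic enzymes, 6 of 15 had a signal of at least 100 on both T-47D arrays and none was called, with a list median log2 ratio of -0.45 over 7 genes. In T-47D cells, PFKM had 695 with JPH203 and 1111 in the control, a ratio of 0.626, and TPI1 had 2086 with JPH203 and 2849 in the control, a ratio of 0.732. PFKL had 91.2 with JPH203, under the minimum, and 203.4 in the control. GAPDH had ratios from 0.947 to 1.16 on its 6 probe sets, 1.03 on the brightest. That direction depends on the scaling, since the log2 ratio of GAPDH was 0.04 as deposited, -0.42 after quantile normalization, -0.43 after loess and -0.61 after spike-in scaling. LDHB was below 100 on both T-47D arrays. In MDA-MB-231 cells none of the 6 tested was called, the list median was -0.066 over 8 genes, TPI1 had a ratio of 0.958 and GAPDH ratios from 0.921 to 0.977.

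The calls in T-47D cells came from the transporters and the regulators, beside 2.42% of all genes tested called lower and 2.23% called higher. Of 4 transporters of glucose, lactate and pyruvate tested in T-47D cells, SLC2A6, a glucose transporter family member, was called lower, with 101.8 with JPH203 and 263 in the control, a ratio of 0.387. MPC1, a subunit of the carrier that brings pyruvate into mitochondria, was called higher, with 893 with JPH203 and 443 in the control, a ratio of 2.02. This is close to the threshold, and MPC1 was not called after quantile normalization or spike-in scaling. Its partner MPC2 had 2677 with JPH203 and 1631 in the control, a ratio of 1.64. Of 14 regulators tested, 1 was called lower. This was DLAT, the acetyltransferase core of the pyruvate dehydrogenase complex, with 337 with JPH203 and 783 in the control, a ratio of 0.430, and ratios of 0.556 and 0.505 on its other probe sets. PDHB, a subunit of the same complex, had 2673 with JPH203 and 2732 in the control. The regulator list had a median of -0.34, with 16 of 17 genes below their control, where 53.7% of all genes were.

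None of the 9 genes of gluconeogenesis and glycogen tested in T-47D cells was called, with a median of -0.27, UGP2 at a ratio of 1.10, which fell below 1 with spike-in scaling, and PGM2 at 0.700. None of the 5 genes of the pentose phosphate pathway was called either, with a median of -0.27, TKT, transketolase, at 0.744 and TALDO1, transaldolase, at 0.893. The median of the 10 enzymes, -0.70, was the lowest of the 6 lists, which were not tested against each other. In MDA-MB-231 cells no gene of the 5 lists was called and the list medians lay between -0.093 and 0.026.

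**Figure D5:**
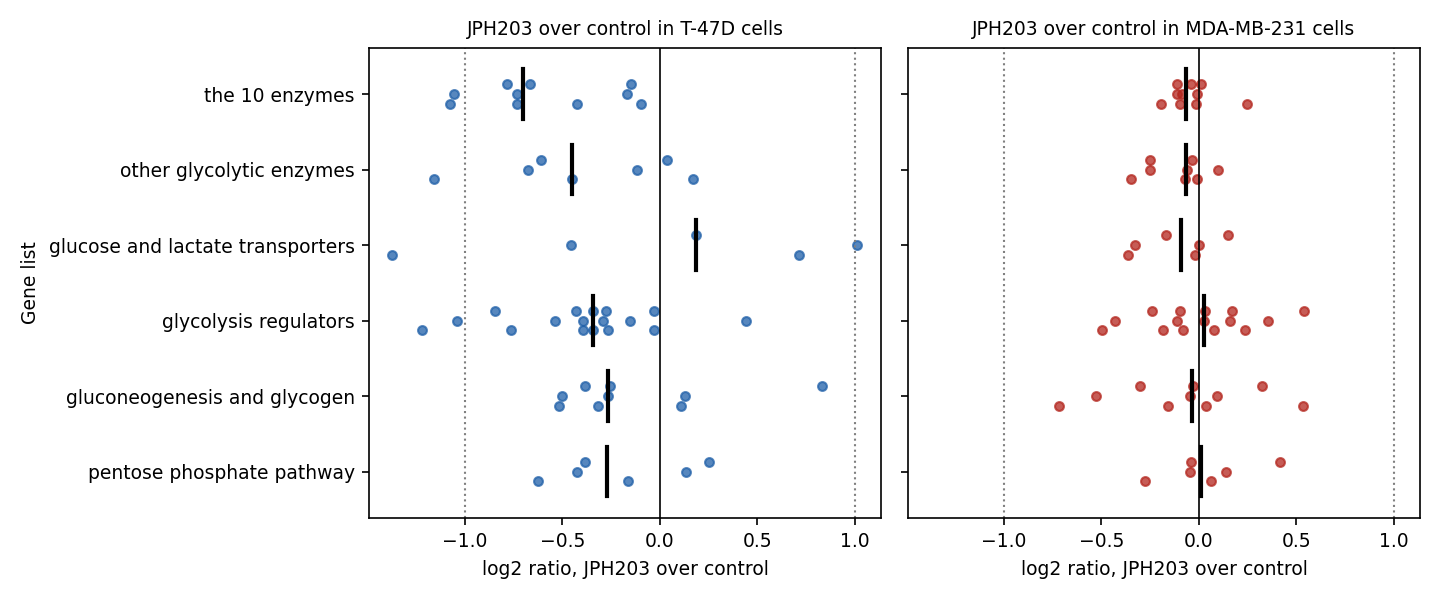
Ratios of JPH203 over control on a log2 scale (x axis) of each gene that reached a signal of 100 on 1 array or both, by list (y axis), in T-47D cells (left) and MDA-MB-231 cells (right), each point from 1 array per condition; black bars are list medians and dotted lines mark 2-fold. In T-47D cells the median of the 10 enzymes is at -0.70 and that of the other glycolytic enzymes at -0.45, and in MDA-MB-231 cells every list median lies within 0.10 of 0.

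Between the control arrays, calls in the wider lists went both ways. SLC2A1, the glucose transporter GLUT1, had 612.5 in MDA-MB-231 controls against 99.4 in T-47D controls, and SLC2A3, GLUT3, had 118 in MDA-MB-231 controls against 5.7 in T-47D controls. Both were under the minimum in T-47D controls, so the differences give no reliable size. PDP1, a phosphatase that activates pyruvate dehydrogenase, had 1080 in MDA-MB-231 controls against 111 in T-47D controls, a ratio of 9.72. In glycogen metabolism, GBE1, the branching enzyme, had a ratio of 5.17, PYGL, the liver phosphorylase, of 4.92, and PYGB, the brain form, 155 in MDA-MB-231 controls against 46.1 in T-47D controls. The T-47D signal of PYGB is under the minimum, and its direction turned, to a log2 ratio of -0.58, without _x_at and _s_at probe sets. G6PC3, a glucose 6-phosphatase, ran the other way at 0.219, and its call was lost after scaling to the spike-ins, at a log2 ratio of -0.49. RPIA, ribose 5-phosphate isomerase, had a ratio of 5.36 and PGLS, the lactonase of the pentose phosphate pathway, of 0.436. The PGLS ratio was above 1 after scaling to the spike-ins. Over all genes tested, 23.5% were higher for MDA-MB-231 and 24.3% for T-47D. In that order, the lists had 2 and 2 of 9 other glycolytic enzymes, 2 and 0 of 7 transporters and 4 and 3 of 17 regulators. Gluconeogenesis and glycogen had 6 and 1 of 11 genes, and the pentose phosphate pathway 1 and 1 of 6. Of the 8 genes of gluconeogenesis and glycogen that reached the minimum on both control arrays, 4 were called higher for MDA-MB-231 and 1 for T-47D. Among all such genes 16.3% were higher for MDA-MB-231, and the share higher for T-47D was not computed. Counts with this minimum are not given for the other lists.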

How the data were processed

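Total RNA of 4 cultures was hybridised as biotin-labelled cRNA to Affymetrix U133 Plus 2.0 arrays. The authors deposited linear signal intensity values per probe set. GCOS is the tool in the submitters' processing notes. Its version is not given in the sources used here. After trimming 2% of values at each end, every array averaged 100.0, as global scaling gives, and no detection calls were used. The number of arrays limits the precision.

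The platform annotation gives 1 gene for 41097 of the 54675 probe sets, several for 1801 and none for 11777. A gene's brightest probe set by mean signal over the 4 arrays was used. All 10 enzymes matched RefSeq by gene identifier. The enzymes and lists were chosen with earlier results of these data known. Named beside the 10 enzymes were the called genes of each list, at most 4 by size of change, the 2 brightest of a list with fewer than 2 calls, and TPI1, GAPDH, LDHB, PFKL and PFKM. ARNT was added after its values were seen. Alternatives were 4 other scalings, a pseudocount of 16, other minimum signals and thresholds, and other probe set choices. Their use on genes beyond the 10 enzymes was chosen after seeing the data. Calling was checked on simulated data with less noise than the spread of ratios in either line. The check therefore does not show how often noise alone would give a call on these arrays. Python 3.11.15, numpy 2.4.6, pandas 2.3.3, statsmodels 0.14.6 and matplotlib 3.10.9 were used.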

Additional observations from a re-analysis of the deposited data

Results flagged for a closer look

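MPC1, the mitochondrial pyruvate carrier subunit, was the gene among those named whose ratios lay outside the central 95% of the 500 probe sets nearest in signal in both lines and in opposite directions. In T-47D cells it had signals of 893 with JPH203 and 443 in the control, and in MDA-MB-231 cells of 570 with JPH203 and 733 in the control. The ratio was 2.02 in T-47D cells and 0.778 in MDA-MB-231 cells. The log2 ratio in T-47D cells minus that in MDA-MB-231 cells was 1.38, and this difference was not tested. The MDA-MB-231 ratio was just outside its range, which began at 0.787. Both signs turned with the mean of all probe sets, where the log2 ratio was -0.12 in T-47D cells and 0.008 in MDA-MB-231 cells. The T-47D call was also lost after quantile normalization, spike-in scaling and a pseudocount of 16.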

How the results depend on the processing

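Median centring, quantile normalization and loess changed no count of enzymes called and turned the direction of none of the 10 in T-47D cells. Under other probe set choices, 3 log2 ratios of the 10 changed sign in T-47D cells. HK2 and ENO1 were above their controls with the mean of all probe sets, as was ENO1 without _x_at and _s_at probe sets. The ENO1 probe set left in that case had 7.6 with JPH203 and 1.2 in the control, under the minimum. With JPH203 in T-47D cells, 0 enzymes were called as deposited, 2 at a minimum signal of 50 or with no minimum, 4 at 1.5-fold, 5 with poly-A spike-in scaling, which moved the median of the 10 to -1.34 and that of all genes to -0.70, and 1, PGK1, with the mean of all probe sets. In MDA-MB-231 cells 0 were called under every alternative, and the median of the 10 was 0.046 after spike-in scaling, where that of all genes was 0.11, and 0.063 with the mean of all probe sets. Between the control arrays, 2 enzymes were called as deposited, 8 after spike-in scaling, 4 at 1.5-fold, 1 at 3-fold and 1 with the mean of all probe sets. At 1.5-fold, 2789 of the 8294 genes tested were higher in MDA-MB-231 controls and 2802 in T-47D controls. For spike-in scaling, 3-fold, other minimum signals and the mean of all probe sets, the share of all genes called was not computed in any comparison. The median of the 10 between the controls was 1.69 after spike-in scaling, 0.13 after quantile normalization, 0.11 after loess and 0.22 without _x_at and _s_at probe sets. Alternatives were run for the 10 enzymes and the other genes named except ARNT, not for every gene of the lists. Among these, called log2 ratios that changed sign were those of PFKP between the controls, -0.60 with the mean of all probe sets, PFKM and PGLS between the controls, 0.54 and 0.51 after spike-in scaling, PYGB between the controls, -0.58 without _x_at and _s_at probe sets, and MPC1 with JPH203 in T-47D cells, -0.12 with the mean of all probe sets. In the mean, dim probe sets weigh as much as bright ones. The PFKP one had 2.0 for the MDA-MB-231 control and 12.6 for the T-47D control, and the MPC1 one 1.9 with JPH203 and 4.5 in the control. Spike-in scaling assumes equal spike-in amounts, and those amounts are not given in the sources used here. SLC2A6 was not called at a minimum of 200, MPC1 not after quantile normalization, spike-in scaling or with a pseudocount of 16, and DLAT not without _x_at and _s_at probe sets. Between the controls, EPAS1 and G6PC3 were not called after spike-in scaling.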

Other observations

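PCK2, the mitochondrial phosphoenolpyruvate carboxykinase, was chosen after its values were seen. It had signals of 421 with JPH203 and 236.5 in the control of T-47D cells, a ratio of 1.78, and of 175 with JPH203 and 121 in the control of MDA-MB-231 cells, a ratio of 1.45. It was not called in either line. Of the 500 probe sets nearest in signal, 96.0% in T-47D cells and 99.0% in MDA-MB-231 cells had a lower ratio, where the 10 glycolytic enzymes lay between 1.4% and 11.2% in T-47D cells and between 12.0% and 96.8% in MDA-MB-231 cells.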
